A study of Mus musculus with 15 samples.

Results

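The difference in the differentiation response between MIGA2-KO and wild-type (WT) 3T3-L1 cells is the change from day 0 to day 6 in MIGA2-KO minus the change from day 0 to day 6 in WT, computed for each gene. It was read from 12 of the 15 RNA sequencing libraries of the study, 3 each of WT at day 0, WT at day 6, MIGA2-KO at day 0 and MIGA2-KO at day 6. All genes with enough counts entered, 12195 of the 25700 in the files. 3T3-L1 is a mouse embryo fibroblast line, obtained here from ATCC, whose confluent cells turn into fat cells when given dexamethasone, IBMX (a phosphodiesterase inhibitor) and insulin. In both lines, day 0 is the time at which confluent cultures received this mixture in medium with fetal serum. The cells then had insulin alone, then plain medium with serum, and were collected at day 6. WT cells are labelled wild type and MIGA2-KO cells are labelled as depleted of MIGA2, and no other allele or agent is named for either line. The labels do not say how MIGA2 was depleted, whether MIGA2-KO is 1 clone or a pool, or whether each replicate is its own culture. P-values therefore reflect the spread between these libraries alone, which may be technical.

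MIGA2 (mitoguardin 2) sits in the outer membrane of mitochondria and binds VAP proteins of the endoplasmic reticulum, and it has been linked to contacts between mitochondria, the endoplasmic reticulum and lipid droplets. Adipocyte differentiation starts with C/EBP factors, which induce PPARγ and C/EBPα. These in turn drive genes for fatty acid uptake, synthesis and storage, while the cells leave the cell cycle, lose much of their fibroblast matrix program and build up mitochondria. Citrate exported from mitochondria supplies the acetyl-CoA for fatty acid and cholesterol synthesis, a path that joins both organelles to lipid storage.

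Library totals ran from 19625147 to 26003871 counts in WT at day 0 and from 10956827 to 12619058 in the other 3 groups. Replicates were unequally spread: the biological coefficient of variation was 23.49% before and 20.85% after differentiation in WT, 3.172% and 15.65% in MIGA2-KO, and 17.79% over all 12. Transcripts of the mitochondrial genome made up 2.07% to 3.44% of WT counts before and 7.06% to 12.55% after differentiation. In MIGA2-KO the share was 4.69% to 4.77% before and 7.73% to 8.78% after. Replicate 1 stood apart from its fellows in 3 groups. Chi-square per degree of freedom between the counts of 2 replicates was 95.8 and 125 for WT day 0 replicate 1 against 19.7 between its fellows, 49.5 and 66.6 against 9.47 for WT day 6 replicate 1, and 37.1 and 32.6 against 2.37 for the library labelled MIGA2-KO day 6 replicate 1. The last lay beyond both fellows on the side of WT day 6 for 1785 (67.5%) of the 2644 genes called below and for 7411 (60.8%) of all 12195 tested. It lay beyond them on the other side for 513 and 2751 and between them for 346 and 2033. Beside the counts of called list members below, the count without a library is given where leaving it out moved the count by over 1.5 times. In bulk RNA, fewer cells of a type and less RNA per cell cannot be told apart.

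Levels are in CPM, counts scaled to a common library total with TMM-adjusted library sizes, given for replicates 1, 2 and 3 in order or as mean ± SD of 3 libraries. Changes are on the log2 scale, with a standard error after ±. A difference in change of -1 means that the ratio of day 6 to day 0 was 2-fold lower in MIGA2-KO than in WT. A gene is called when its adjusted p is under 0.05 in edgeR's quasi-likelihood test, with Benjamini-Hochberg adjustment over the 12195 genes. The gene lists below were chosen with earlier results of these data known. Their shares called describe the lists and are not independent support for a program.

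Miga2 itself (chromosome 2, 30364233 to 30385521 in GRCm38, GENCODE vM21) measured 15.7, 17.9 and 13.7 CPM before and 147, 161 and 183 after differentiation in WT. Miga2 in MIGA2-KO measured 17.3, 21.5 and 22.7 before and 932, 74.96 and 70.5 after. The transcript rose in both lines, and the library labelled MIGA2-KO day 6 replicate 1 was far above every other library while its fellows were below WT at day 6. The difference in change was 0.76 ± 1.05 (adjusted p = 0.65) over all libraries and -1.55 (adjusted p = 0.000464) without that library, so the direction rests on it. At day 0 the lines overlapped in Miga2 mRNA. The mRNA level checks the label of a depleted line only if the lesion lowers the transcript, which the labels do not say. Whether the library at 932 CPM is labelled correctly was not tested, and it enters the MIGA2-KO day 6 means below. The paralogue Miga1 was under 4 CPM in every library (difference in change 1.14 ± 0.59, adjusted p = 0.19).

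The change over time differed between the lines for 2644 genes, 21.7% of those tested. It was higher in MIGA2-KO for 1338 genes (11.0%) and lower for 1306 (10.7%), and 4394 had an unadjusted p under 0.05. The difference was 2-fold or more for 870 of the higher and 747 of the lower genes. When each of the 12 libraries was left out in turn, 1640 genes (830 higher, 810 lower) passed every time. The number called was most dependent on WT day 0 replicate 1: without it 4345 genes passed. When the library labelled MIGA2-KO day 6 replicate 1 was left out, 2956 did. With replicate 1 of WT day 0, WT day 6 and MIGA2-KO day 6 all left out, 7376 did.

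Most of these genes changed less in MIGA2-KO than in WT. Over the called genes, the median size of the log2 change was 1.44 in WT and 0.59 in MIGA2-KO. Of the 1338 genes with a higher change in MIGA2-KO, 622 fell in WT and were not called in MIGA2-KO, and 427 fell in both. Of the 1306 with a lower change, 470 rose in WT and were not called in MIGA2-KO, and 598 rose in both. Only 132 had called changes of opposite sign. By comparison, 61.0% of all tested genes changed over time in WT and 40.0% in MIGA2-KO. Across the 11490 genes with at least 10 counts in each group, the change in MIGA2-KO against that in WT had a slope of 0.54, with Pearson's r of 0.78 and Spearman's rho of 0.72. These describe genes, which are not independent replicates. The comparisons of the lines at day 0 and at day 6 use the same 12 libraries as the difference in change, so their values are given beside it and are not separate evidence.

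**Figure D1:**
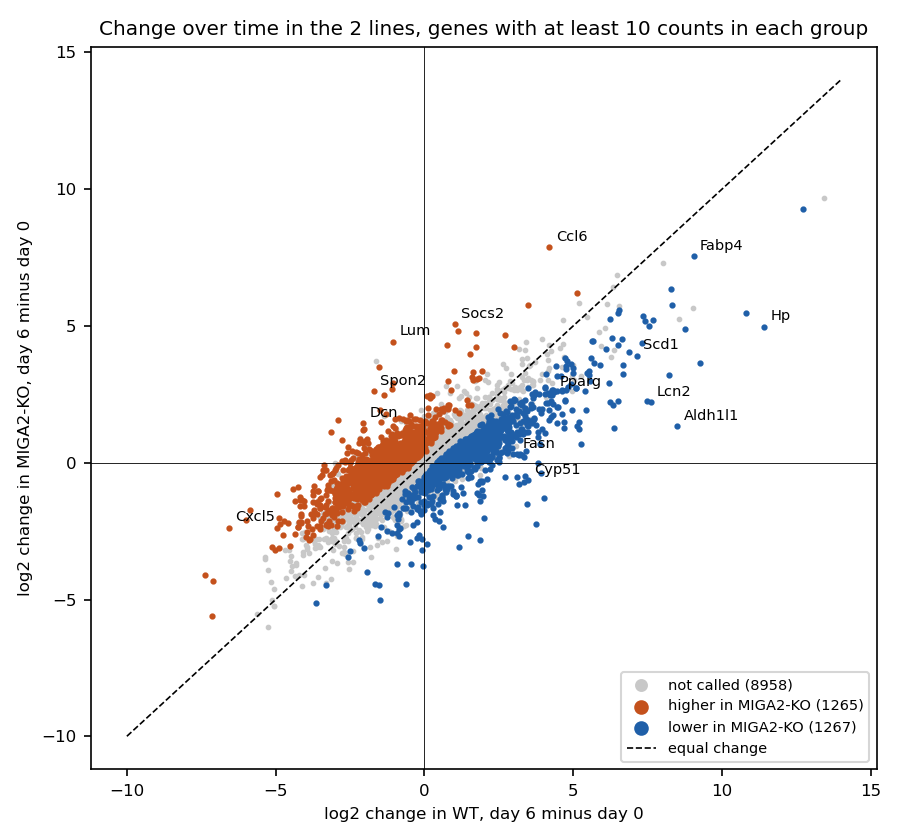
Log2 change from day 0 to day 6 in WT (x axis) and in MIGA2-KO (y axis) for the 11490 genes with at least 10 counts in each group, 1 point per gene. Called genes lie off the dashed line of equal change, orange where the change was higher in MIGA2-KO and blue where it was lower. Most blue points lie at positive WT changes below the line and most orange points at negative WT changes above it.

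Most genes of cholesterol synthesis and uptake fell in MIGA2-KO, while in WT more of them rose than fell. Of 24 tested members of the list, 19 had a lower change in MIGA2-KO and none a higher one, against 10.7% and 11.0% of all genes, with a median difference of -1.66 beside 0.02 over all genes. In WT 12 members rose and 3 fell (all genes: 29.9% and 31.0%). In MIGA2-KO none rose and 18 fell (20.8% and 19.2%), and 16 to 21 members had a lower change when single libraries were left out. Over the list the median line difference was 0.26 at day 0 and -1.19 at day 6. Nsdhl, Lss and Cyp51, described next, were already higher in every MIGA2-KO library than in WT at day 0.

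Nsdhl, which removes a C4 carboxyl group on the way from lanosterol to cholesterol, measured 124, 124 and 141 CPM before and 299, 271 and 237 after differentiation in WT. Nsdhl in MIGA2-KO measured 148, 146 and 146 before and 63.4, 60.9 and 65.5 after. The 4 groups did not overlap, with the highest values in WT at day 6 and the lowest in MIGA2-KO at day 6 (difference in change -2.27 ± 0.15, adjusted p = 4e-06). Lss, which closes squalene epoxide into lanosterol, measured 52.1, 69.6 and 66.0 CPM before and 97.0, 81.9 and 81.1 after differentiation in WT. Lss in MIGA2-KO measured 104, 103 and 104 before and 40.5, 34.3 and 34.4 after. It rose in WT and fell in MIGA2-KO, from a day 0 level that was higher in MIGA2-KO (difference in change -1.98 ± 0.18, adjusted p = 2.6e-05). Cyp51, the lanosterol demethylase, measured 90.4, 87.0 and 96.7 CPM before and 1007, 1037 and 1014 after differentiation in WT. Cyp51 in MIGA2-KO measured 113, 114 and 114 before and 136, 41.5 and 41.8 after. The WT day 6 libraries were close together and far above the rest. The library labelled MIGA2-KO day 6 replicate 1 lay above the day 0 range of both lines while its fellows lay below it (difference in change -4.11 ± 0.51, adjusted p = 0.00018).

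Other members had the same direction without a call of their own in MIGA2-KO. Pmvk, the kinase that makes mevalonate diphosphate, averaged 21.1 ± 7.51 CPM at day 0 and 214 ± 51.5 at day 6 in WT and 22.5 ± 1.02 and 26.1 ± 2.75 in MIGA2-KO (difference in change -3.14 ± 0.33, adjusted p = 6.3e-05). Dhcr7, which makes cholesterol from its last precursor, averaged 51.9 ± 1.68 CPM at day 0 and 165 ± 13.5 at day 6 in WT and 75.3 ± 1.08 and 66.0 ± 11.98 in MIGA2-KO (difference in change -1.86 ± 0.18, adjusted p = 3.2e-05). Members not called were Hmgcs1, Mvk, Idi1, Stard4 and Srebf2, which encodes the transcription factor SREBP2. The change in Srebf2 was -0.71 in WT and -1.21 in MIGA2-KO (difference in change -0.49 ± 0.18, adjusted p = 0.071). The uncalled members are named outside the rule for named genes, after their values were seen.

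**Figure D2:**
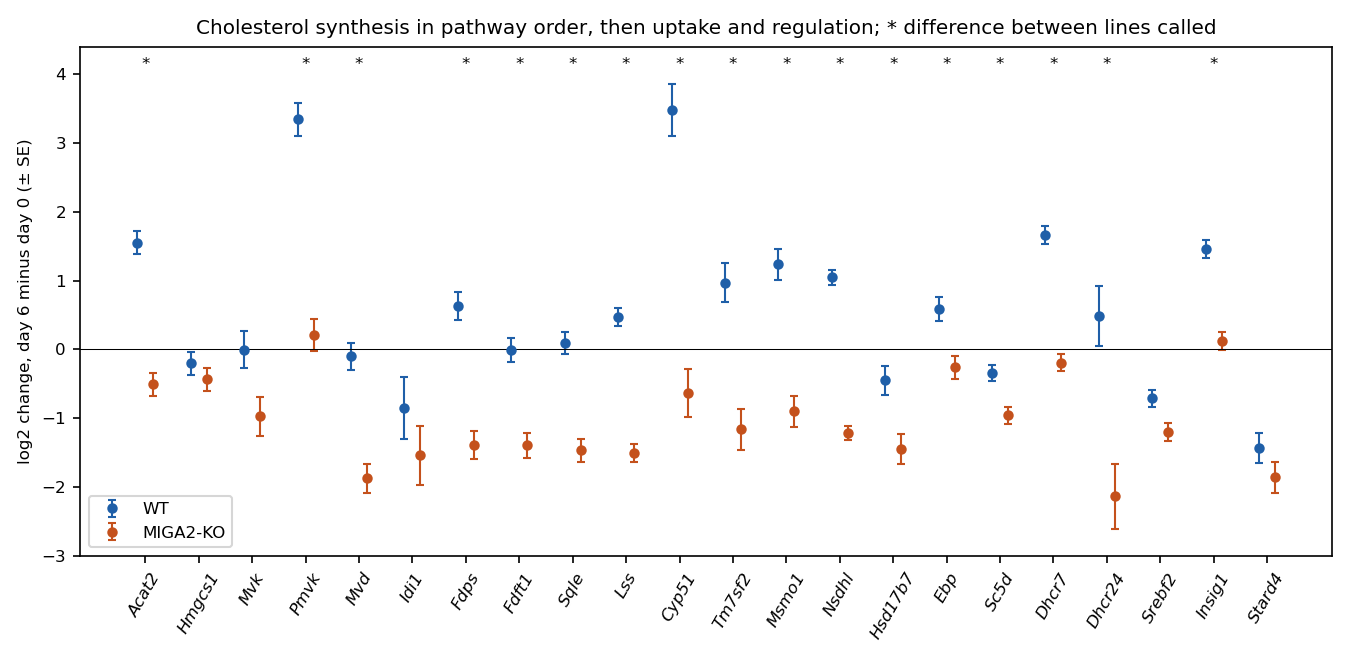
Log2 change from day 0 to day 6 with its standard error for 22 of the tested genes of cholesterol synthesis and uptake, WT in blue and MIGA2-KO in orange, ordered along the pathway and then uptake and regulation. An asterisk marks the 17 genes among them whose change differed between the lines, all of them lower in MIGA2-KO.

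Because members of the pathway moved together, the 250 bases before the annotated start of each gene were read from RefSeq (GRCm38.p6) for the 17 listed genes with an entry. SREBP2 is known to act with NF-Y at many of these promoters, so 2 motifs were searched on both strands: TCACNCCAC, a core of the sterol regulatory element, and CCAAT, the box that NF-Y binds, which reads ATTGG on the other strand. No match of one overlapped a match of the other in the sequences shown. CCAAT was in 16 of 17 cholesterol genes and in 37.5% of 27025 genes (41.3% of the 9423 tested genes with an entry). TCACNCCAC was in 1 of 17, Hmgcs1, and in 1.22% of all genes. A match describes letters only, and a window without a match says nothing of binding. Whether a match goes with the change of a gene was not tested. The promoters of the 3 genes described above and of Hmgcs1, the member with both motifs and a difference in change of -0.23 ± 0.23 (adjusted p = 0.51), are shown 5′ to 3′ on the gene's strand, with matches in capitals. They lie at chrX:72918271-72918520, forward strand (Nsdhl), chr10:76531355-76531604, forward strand (Lss), chr5:4104698-4104947, reverse strand (Cyp51) and chr13:119690101-119690350, forward strand (Hmgcs1).
Nsdhl: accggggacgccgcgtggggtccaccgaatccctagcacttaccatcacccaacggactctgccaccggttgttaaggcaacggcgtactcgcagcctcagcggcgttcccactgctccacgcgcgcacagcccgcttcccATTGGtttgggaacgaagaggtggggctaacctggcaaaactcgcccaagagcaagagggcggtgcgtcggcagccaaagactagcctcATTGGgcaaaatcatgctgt
Lss: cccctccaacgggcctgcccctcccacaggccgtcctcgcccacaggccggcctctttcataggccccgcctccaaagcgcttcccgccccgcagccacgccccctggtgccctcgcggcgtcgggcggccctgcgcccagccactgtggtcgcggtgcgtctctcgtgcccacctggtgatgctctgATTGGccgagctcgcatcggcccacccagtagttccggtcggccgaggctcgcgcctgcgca
Cyp51: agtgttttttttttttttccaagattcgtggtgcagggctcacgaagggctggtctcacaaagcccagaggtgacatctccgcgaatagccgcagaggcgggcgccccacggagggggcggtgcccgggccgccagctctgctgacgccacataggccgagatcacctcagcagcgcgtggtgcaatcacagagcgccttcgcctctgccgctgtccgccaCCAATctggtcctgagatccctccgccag
Hmgcs1: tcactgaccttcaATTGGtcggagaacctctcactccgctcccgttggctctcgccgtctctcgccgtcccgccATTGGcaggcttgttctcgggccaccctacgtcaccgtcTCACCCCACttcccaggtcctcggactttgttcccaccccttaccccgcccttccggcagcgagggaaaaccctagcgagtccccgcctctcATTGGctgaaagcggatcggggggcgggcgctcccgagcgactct

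Genes of fatty acid synthesis rose in WT for 17 of 21 tested members and in MIGA2-KO for 6. Of the 21, 81% had a called difference in change, beside 21.7% of all genes. In this list of de novo lipogenesis 16 had a lower change in MIGA2-KO and 1 a higher one (2 without WT day 0 replicate 1), and the median log2 change over the 21 tested members was 1.70 in WT and 0.13 in MIGA2-KO. Fasn, fatty acid synthase (chromosome 11, 120805846 to 120824547), measured 192, 227 and 175 CPM before and 1434, 1701 and 1991 after differentiation in WT. Fasn in MIGA2-KO measured 332, 331 and 310.0 before and 388, 429.9 and 395 after. MIGA2-KO started above WT and ended far below it, with no overlap at either time (difference in change -2.79 ± 0.20, adjusted p = 4.9e-06). Scd1, which desaturates stearoyl-CoA, measured 139, 159.5 and 181 CPM before and 24601, 21204 and 21878 after differentiation in WT. Scd1 in MIGA2-KO measured 339, 338 and 356 before and 10859.5, 2360.3 and 2384 after. The replicate 1 library of MIGA2-KO at day 6 was between the WT day 6 libraries and its fellows, and without it the difference in change was -4.36, against -3.22 ± 0.65 over all libraries (adjusted p = 0.0044).

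Enzymes that supply carbon and NADPH had the same direction. Acly, which splits cytosolic citrate into acetyl-CoA, measured 204, 292 and 289 CPM before and 323, 273 and 281 after differentiation in WT. Acly in MIGA2-KO measured 288, 294 and 295 before and 131, 116 and 122 after. Levels were alike in 3 groups and lower in MIGA2-KO at day 6, which overlapped with none of them (difference in change -1.41 ± 0.19, adjusted p = 0.00038). Acaca, acetyl-CoA carboxylase, changed by 1.70 in WT and -0.22 in MIGA2-KO (difference in change -1.92 ± 0.27, adjusted p = 0.00041). The NADPH-producing enzymes Pgd and Me1 had differences of -1.34 ± 0.17 and -1.07 ± 0.14 (adjusted p = 0.00024 and 0.00036). The member with a higher change in MIGA2-KO was Elovl6, which elongates palmitate. It fell in both lines and less in MIGA2-KO. Elovl6 measured 25.1, 24.9 and 28.3 CPM before and 11.0, 9.05 and 8.92 after differentiation in WT. Elovl6 in MIGA2-KO measured 29.9, 31.8 and 30.9 before and 21.9, 19.7 and 21.0 after (difference in change 0.87 ± 0.17, adjusted p = 0.0041). Acly, Acaca and Elovl6 were singled out after their values were seen.

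Genes of lipid storage rose in both lines for most members, 14 of 20 in WT and 13 in MIGA2-KO for triacylglycerol synthesis. In that list 7 had a lower change (11 with the library labelled MIGA2-KO day 6 replicate 1 left out) and none a higher one (2 without WT day 0 replicate 1 and 1 without that library). Agpat2, the acyltransferase mutated in a human lipodystrophy, averaged 28.1 ± 6.84 CPM at day 0 and 1454 ± 279 at day 6 in WT and 33.3 ± 0.792 and 418 ± 26.3 in MIGA2-KO (difference in change -2.05 ± 0.25, adjusted p = 0.00017). Dgat1, which makes triacylglycerol from diacylglycerol, averaged 20.4 ± 3.19 CPM at day 0 and 658 ± 119 at day 6 in WT and 24.9 ± 1.48 and 272 ± 53.1 in MIGA2-KO (difference in change -1.56 ± 0.25, adjusted p = 0.00091). Gpat4, an acyltransferase of the first step, averaged 94.6 ± 2.35 CPM at day 0 and 460.1 ± 61.4 at day 6 in WT and 83.5 ± 5.78 and 127 ± 38.7 in MIGA2-KO (difference in change -1.67 ± 0.25, adjusted p = 0.0007). Of 18 lipid droplet genes, 5 were lower (9 without that library) and none higher (1 if replicate 1 of WT day 0 or of WT day 6 was left out). Among the lower ones was Fitm2, which helps droplets bud from the endoplasmic reticulum (difference in change -1.35 ± 0.14, adjusted p = 5.9e-05). Cavin1 and Cav1, of caveolae, differed by -1.09 ± 0.17 and -0.79 ± 0.19 (adjusted p = 0.001 and 0.0098). Of 19 lipolysis genes, 6 were lower (8 without that library) and none higher. Pnpla2, adipose triglyceride lipase, averaged 19.01 ± 4.74 CPM at day 0 and 1884 ± 495 at day 6 in WT and 20.5 ± 1.02 and 468 ± 19.4 in MIGA2-KO (difference in change -2.12 ± 0.28, adjusted p = 0.00034). Abhd5, its activator, had a difference of -1.12 ± 0.14 (adjusted p = 0.00025). The shares called were 35% for triacylglycerol synthesis, 27.8% for lipid droplet genes and 31.6% for lipolysis, beside 21.7% of all genes. Under 10 counts in at least 1 group were found for 9 of the 19 lipolysis and 6 of the 18 lipid droplet genes. For such genes a log2 change is fixed by few counts.

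Master regulators of adipogenesis differed gene by gene. Among 22 activators, 5 had a lower and 2 a higher change in MIGA2-KO, with 8 lower when WT day 6 replicate 1 was left out. The count higher was 5 without WT day 0 replicate 1, 4 without WT day 6 replicate 1, 3 with the library labelled MIGA2-KO day 6 replicate 1 left out and 1 without any other library. Pparg, the nuclear receptor at the top of the program, measured 15.9, 13.6 and 14.5 CPM before and 297, 299 and 298 after differentiation in WT. Pparg in MIGA2-KO measured 26.0, 27.8 and 26.1 before and 163, 155 and 159 after. Replicates were tight, MIGA2-KO started higher and ended lower, and no group overlapped another (difference in change -1.77 ± 0.13, adjusted p = 7.1e-06). Nr1h3 (LXRα) averaged 4.85 ± 0.527 CPM at day 0 and 152 ± 36.8 at day 6 in WT and 11.8 ± 1.37 and 44.8 ± 8.34 in MIGA2-KO (difference in change -3.04 ± 0.28, adjusted p = 2.4e-05). Srebf1, which encodes SREBP1, averaged 30.7 ± 5.40 CPM at day 0 and 216 ± 68.8 at day 6 in WT and 42.6 ± 2.73 and 137 ± 9.94 in MIGA2-KO (difference in change -1.13 ± 0.28, adjusted p = 0.013). Cebpa, named after its values were seen, measured 6.41, 5.59 and 5.12 CPM before and 193, 217 and 223 after differentiation in WT. Cebpa in MIGA2-KO measured 0.968, 0.384 and 0.245 before and 41.2, 25.9 and 25.5 after. It was lower in MIGA2-KO at both times, and its relative rise did not pass the test of a difference (difference in change 0.63 ± 0.44, adjusted p = 0.33). Among 20 inhibitors, 3 had a higher change and none a lower one. Thus 15% was called, beside 31.8% of the activators and 21.7% of all genes. The count of inhibitors higher was 6 without WT day 0 replicate 1. It was 1 without WT day 0 replicate 2, MIGA2-KO day 0 replicate 2, MIGA2-KO day 0 replicate 3 or MIGA2-KO day 6 replicate 2. Sox9, which represses adipogenesis, fell in WT and rose in MIGA2-KO, measuring 52.3, 53.5 and 46.3 CPM before and 17.2, 21.7 and 20.6 after differentiation in WT. Sox9 in MIGA2-KO measured 43.3, 41.0 and 35.0 before and 45.8, 65.7 and 61.9 after (difference in change 1.89 ± 0.22, adjusted p = 0.00011).

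Adipocyte markers include genes that are near zero before differentiation, where a log2 change is fixed by few counts. Of the 21 tested, 12 had under 10 counts in at least 1 group. In the list 7 had a lower and 1 a higher change in MIGA2-KO, with DESeq2 calling 12 lower. By edgeR 38.1% was called, beside 21.7% of all genes. Fabp4, a fatty acid carrier, measured 39.8, 23.1 and 26.9 CPM before and 13521, 18884 and 15217 after differentiation in WT. Fabp4 in MIGA2-KO measured 17.8, 17.3 and 19.3 before and 4520.2, 2863 and 2803 after. Both lines rose by orders of magnitude and MIGA2-KO ended lower without overlap (difference in change -1.502 ± 0.33, adjusted p = 0.0066). Lpl, lipoprotein lipase, averaged 695 ± 70.5 CPM at day 0 and 12755 ± 361 at day 6 in WT and 1133 ± 16.6 and 4358 ± 1204 in MIGA2-KO (difference in change -2.26 ± 0.24, adjusted p = 6.1e-05). Acsl1, which activates fatty acids, averaged 14.3 ± 4.06 CPM at day 0 and 2975 ± 554 at day 6 in WT and 10.4 ± 0.449 and 392 ± 142 in MIGA2-KO (difference in change -2.46 ± 0.37, adjusted p = 0.00068). Adipoq (adiponectin), named after its values were seen, had 2 and 3 counts in all at day 0 in WT and MIGA2-KO. At day 6 it was at 5876, 7082 and 7491 CPM in WT and 2045, 1492 and 1511 in MIGA2-KO (line difference at day 6 -2.02 ± 0.21, adjusted p = 1.2e-05). Cfd (adipsin), likewise singled out, had 0 counts in both lines at day 0 and stood at 5349, 9993 and 13776 CPM in WT and 1709, 821 and 757 in MIGA2-KO at day 6. The difference in change for such genes has no usable fold, and their day 6 levels did not overlap.

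**Figure D3:**
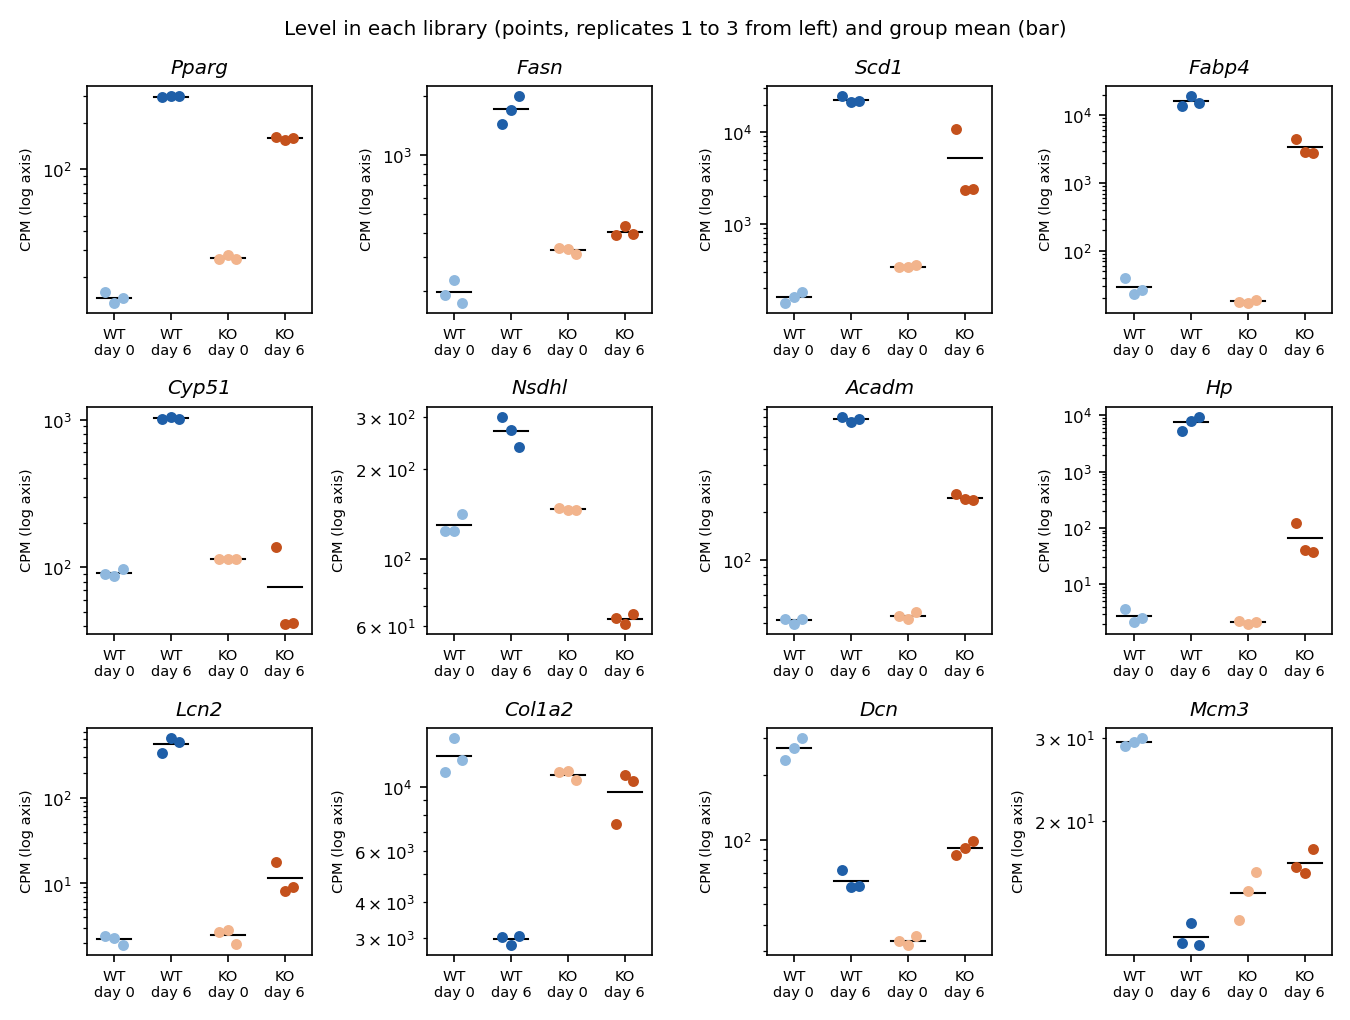
Level of 12 genes in each library (points, replicates 1 to 3 from left) with group means (bars), in CPM on log axes, for WT at day 0 and day 6 (blues) and MIGA2-KO at day 0 and day 6 (oranges). Pparg, Fasn, Scd1, Fabp4, Cyp51, Nsdhl, Acadm, Hp and Lcn2 ended lower in MIGA2-KO than in WT, Col1a2, Dcn and Mcm3 ended higher, and Dcn and Mcm3 were already lower in MIGA2-KO at day 0.

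Mitochondrial energy metabolism rose in WT and less so in MIGA2-KO. In the list for the TCA cycle and the entry of pyruvate, 26 of 26 genes rose in WT and 25 in MIGA2-KO. Of these 22 had a lower change in MIGA2-KO with none higher (21 to 23 with 1 library left out). Thus 84.6% was called, beside 21.7% of all genes. Pcx, pyruvate carboxylase, which refills oxaloacetate, measured 99.2, 104 and 87.9 CPM before and 2447, 2935 and 3415 after differentiation in WT. Pcx in MIGA2-KO measured 105, 111 and 108 before and 745, 871 and 798 after. The lines were close at day 0, and at day 6 every MIGA2-KO library was far below WT (difference in change -2.02 ± 0.19, adjusted p = 2.5e-05). Mpc1, a subunit of the mitochondrial pyruvate carrier, averaged 11.5 ± 1.51 CPM at day 0 and 62.3 ± 3.49 at day 6 in WT and 9.90 ± 0.191 and 18.4 ± 1.57 in MIGA2-KO (difference in change -1.54 ± 0.18, adjusted p = 0.00011).

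Oxidation of fatty acids and of branched-chain amino acids gave similar counts. The shares called were 82.6% for fatty acid oxidation and 86.4% for branched-chain amino acid catabolism, beside 21.7% of all genes. In fatty acid oxidation 18 of 23 genes had a lower change and 1 a higher one. Acadm, medium-chain acyl-CoA dehydrogenase, measured 42.1, 39.3 and 42.2 CPM before and 797, 747 and 777 after differentiation in WT. Acadm in MIGA2-KO measured 43.7, 41.8 and 46.8 before and 259, 243 and 239 after, with overlap of the lines at day 0 and none at day 6 (difference in change -1.74 ± 0.13, adjusted p = 7.4e-06). Slc25a20, the carnitine-acylcarnitine carrier, rose in WT by 1.32 and changed by -0.11 in MIGA2-KO (difference in change -1.43 ± 0.19, adjusted p = 0.00029). In branched-chain amino acid catabolism 18 of 22 had a lower and 1 a higher change, the latter not called without any 1 of the WT day 0 replicates 2 and 3, the WT day 6 replicates 2 and 3 and the MIGA2-KO day 0 replicates. Bcat2, the mitochondrial aminotransferase of the first step, measured 49.6, 34.7 and 28.6 CPM before and 1138, 1665 and 1934 after differentiation in WT. Bcat2 in MIGA2-KO measured 24.4, 25.5 and 28.1 before and 184, 155 and 144 after, and MIGA2-KO at day 6 sat between its day 0 level and WT at day 6 (difference in change -2.76 ± 0.31, adjusted p = 9e-05). Bckdhb, of the dehydrogenase complex that follows, differed by -1.97 ± 0.18 (adjusted p = 2.4e-05).

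The respiratory chain showed the same direction with counts that depended on single libraries. Of 75 nuclear genes for its subunits and ATP synthase, 72 rose in WT and 46 in MIGA2-KO, and 35 had a lower change with none higher (median difference -1.02). The count was 69 when WT day 0 replicate 1 was left out, 60 for WT day 6 replicate 1 and 37 for the library labelled MIGA2-KO day 6 replicate 1. It was 18 to 22 without any 1 of the other 9 libraries. Over all 12 libraries 46.7% was called, beside 21.7% of all genes. Uqcrc2, of complex III, averaged 73.8 ± 5.599 CPM at day 0 and 281 ± 27.5 at day 6 in WT and 84.8 ± 1.31 and 138 ± 15.3 in MIGA2-KO (difference in change -1.23 ± 0.16, adjusted p = 0.00028). Atp5b, the catalytic subunit of ATP synthase, averaged 754 ± 103 CPM at day 0 and 2952 ± 275 at day 6 in WT and 932 ± 7.03 and 1858 ± 102 in MIGA2-KO (difference in change -0.97 ± 0.17, adjusted p = 0.0019). Of 74 mitochondrial ribosomal protein genes, 17 (23%) were lower and none higher, against 10.7% and 11.0% of all genes. The count lower was 54, 35 and 16 without those same 3 libraries in turn and 6 to 10 without any 1 of the other 9. Of the 13 mRNAs of the mitochondrial genome, 7 passed the count filter, and 5 of these had a lower change. Thus 71.4% of the 7 was called, beside 21.7% of all genes. mt-Cytb measured 5675, 6469 and 6765 CPM before and 38126, 31665 and 25008 after differentiation in WT. mt-Cytb in MIGA2-KO measured 8661, 8626 and 8562 before and 15755, 10106 and 10073 after. MIGA2-KO was higher at day 0 and lower at day 6, with no overlap (difference in change -1.85 ± 0.28, adjusted p = 0.00066). mt-Nd1 measured 3432, 3476 and 4403 CPM before and 25528, 19469.7 and 20111 after differentiation in WT. mt-Nd1 in MIGA2-KO measured 8023, 8234 and 7946 before and 20601, 20552 and 19639 after, where the day 6 groups overlapped and the difference came with a higher start in MIGA2-KO (difference in change -1.196 ± 0.20, adjusted p = 0.0014).

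Among genes that shape mitochondria or control their number, shares called lay nearer to or below the 21.7% of all genes. They were 16.1% for mitochondrial dynamics and organelle contacts, 23.5% for regulators of mitochondrial biogenesis and 9.09% for thermogenic genes. In the list of mitochondrial dynamics and organelle contacts, 5 of 31 had a lower change and none a higher one, with 10 lower without WT day 0 replicate 1 and 3 without WT day 0 replicate 2, WT day 6 replicate 3 or MIGA2-KO day 0 replicate 1. Rmdn3 (PTPIP51), a mitochondrial anchor that binds VAP proteins as MIGA2 does, averaged 19.04 ± 2.83 CPM at day 0 and 76.7 ± 1.37 at day 6 in WT and 23.5 ± 0.802 and 42.3 ± 4.42 in MIGA2-KO (difference in change -1.16 ± 0.18, adjusted p = 0.00076). Among 17 regulators of mitochondrial biogenesis 3 were lower and 1 higher, with 3 higher without WT day 0 replicate 1. The higher one, Ppargc1a, the coactivator PGC-1α, measured 3.18, 6.20 and 8.79 CPM before and 2.1896, 1.08 and 1.18 after differentiation in WT. Ppargc1a in MIGA2-KO measured 4.60, 3.92 and 4.73 before and 9.72, 11.1 and 9.99 after. It fell in WT and rose in MIGA2-KO, whose 3 day 6 libraries lay above all others (difference in change 3.24 ± 0.49, adjusted p = 0.0007). Polg, the mitochondrial DNA polymerase, and Polrmt, its RNA polymerase, went the other way, at -1.06 ± 0.18 and -1.38 ± 0.28 (adjusted p = 0.0018 and 0.0046). Of 11 thermogenic genes, only Ppargc1a was called. Without WT day 0 replicate 1, 3 were higher and 2 lower, without WT day 6 replicate 1, 2 and 2, and with the library labelled MIGA2-KO day 6 replicate 1 left out, 2 and 1.

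Peroxisomal and glycolytic genes also had mostly lower changes in MIGA2-KO. The shares called were 58.8% for peroxisomal, 83.3% for glycolytic and 50% for hypoxia and HIF target genes, beside 21.7% of all genes. Of 34 peroxisomal genes 20 had a lower change and none a higher one (1 if replicate 1 of WT day 0 or of WT day 6 was left out). Crat, carnitine acetyltransferase, averaged 78.7 ± 3.12 CPM at day 0 and 837 ± 75.5 at day 6 in WT and 87.9 ± 2.43 and 265 ± 13.4 in MIGA2-KO (difference in change -1.82 ± 0.14, adjusted p = 8.1e-06). Pex11a, a factor in peroxisome division, averaged 8.21 ± 0.900 CPM at day 0 and 137 ± 8.20 at day 6 in WT and 8.58 ± 0.743 and 58.7 ± 10.02 in MIGA2-KO (difference in change -1.29 ± 0.20, adjusted p = 0.00086). Of 18 glycolytic genes 14 were lower and 1 higher, with 9 lower without MIGA2-KO day 0 replicate 2, MIGA2-KO day 6 replicate 2 or MIGA2-KO day 6 replicate 3. Hk2, a hexokinase, measured 31.5, 38.5 and 39.4 CPM before and 267, 236 and 221 after differentiation in WT. Hk2 in MIGA2-KO measured 41.6, 37.9 and 41.4 before and 87.4, 65.3 and 63.7 after; the lines overlapped at day 0 and not at day 6 (difference in change -1.88 ± 0.20, adjusted p = 6.5e-05). Gapdh, often used as a reference gene and with many processed copies in the genome among which reads may be shared, measured 1072, 833 and 701 CPM before and 1214, 1579 and 1475 after differentiation in WT. Gapdh in MIGA2-KO measured 646, 654 and 648 before and 551, 407 and 387 after. It rose in WT, fell in MIGA2-KO and was lowest there at day 6, without overlap (difference in change -1.25 ± 0.25, adjusted p = 0.0039). Among 16 hypoxia and HIF target genes 7 were lower (11 with the library labelled MIGA2-KO day 6 replicate 1 left out) and 1 higher, with Ldha, lactate dehydrogenase, at -1.39 ± 0.30 (adjusted p = 0.0065).

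Among stress programs and insulin signalling, 21.7% of the unfolded protein response list was called, 11.5% of the integrated stress response, 20.8% of insulin signalling and 40.0% of the antioxidant list, beside 21.7% of all genes. Their counts moved with single libraries. The unfolded protein response had 5 of 23 members lower and none higher, with 9 lower without WT day 0 replicate 1, 8 with the library labelled MIGA2-KO day 6 replicate 1 left out and 2 or 3 without any other but WT day 6 replicate 1. Leaving out WT day 0 replicate 1 or WT day 6 replicate 1 gave 1 higher member there and in the next list. Pdia6, a disulfide isomerase, and Xbp1, a transcription factor of the response, differed by -1.08 ± 0.18 and -0.85 ± 0.17 (adjusted p = 0.0012 and 0.0043). The integrated stress response had 3 of 26 lower and none higher, with 5 lower when WT day 0 replicate 1 was left out and 11 for the library labelled MIGA2-KO day 6 replicate 1. Mthfd2, a mitochondrial folate enzyme among them, measured 64.6, 62.5 and 60.2 CPM before and 350.1, 358 and 361 after differentiation in WT. Mthfd2 in MIGA2-KO measured 38.3, 39.5 and 38.3 before and 61.3, 35.3 and 35.3 after, lower in MIGA2-KO at both times (difference in change -2.33 ± 0.25, adjusted p = 6.6e-05). Insulin signalling and glucose uptake had 4 of 24 lower and 1 higher. Without any 1 of the MIGA2-KO libraries other than day 6 replicate 1, 2 were lower, and the count higher was 2 or 3 without replicate 1 of WT day 0, WT day 6 or MIGA2-KO day 6 and 0 without any other library. Mtor, which encodes the growth kinase, differed by -1.2 ± 0.20 (adjusted p = 0.0012). Among 25 antioxidant genes 7 were lower and 3 higher (3 or 4 lower without any 1 of WT day 0 replicates 2 and 3, WT day 6 replicate 2 and the MIGA2-KO libraries other than day 6 replicate 1, and 1 higher without WT day 6 replicate 3 or any of those MIGA2-KO libraries), with Prdx3, a mitochondrial peroxiredoxin, at -0.94 ± 0.14 (adjusted p = 0.00071).

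The 12 largest lower changes by the naming rule were in Aldh1l1, Hp, P2ry2, Prodh, Lcn2, Orm1, Elovl4, Steap4, Olr1, Rgcc, Sbsn and Hcls1, from -7.16 to -4.20. Aldh1l1, a cytosolic folate enzyme, measured 0.427, 0.818 and 0.625 CPM before and 192, 244 and 269 after differentiation in WT. Aldh1l1 in MIGA2-KO measured 0.726, 0.538 and 0.653 before and 3.41, 0.912 and 0.613 after. It rose in WT and was not called over time in MIGA2-KO, whose libraries overlapped between days (difference in change -7.16 ± 0.87, adjusted p = 0.00016). Haptoglobin, Hp (chromosome 8, 109575128 to 109579172), a plasma protein that fat cells secrete, measured 3.61, 2.15 and 2.499 CPM before and 5357, 7958 and 9251 after differentiation in WT. Hp in MIGA2-KO measured 2.26, 1.999 and 2.12 before and 123, 41.1 and 37.6 after, with a rise in both lines that ended without overlap (difference in change -6.45 ± 0.69, adjusted p = 6.5e-05). Lcn2, lipocalin 2, measured 2.42, 2.28 and 1.92 CPM before and 334, 503 and 454 after differentiation in WT. Lcn2 in MIGA2-KO measured 2.66, 2.85 and 1.96 before and 17.8, 8.13 and 9.11 after (difference in change -5.38 ± 0.43, adjusted p = 1.1e-05). Orm1, another acute phase protein, averaged 0.428 ± 0.123 CPM at day 0 and 767 ± 138 at day 6 in WT and 0.695 ± 0.202 and 31.3 ± 32.4 in MIGA2-KO, with a difference in change of -5.33 ± 1.32 (adjusted p = 0.013). Close copies of Orm1 lie beside it, among which reads may be shared. Prodh, proline dehydrogenase of mitochondria, averaged 0.157 ± 0.111 CPM at day 0 and 96.2 ± 24.0 at day 6 in WT and 0.422 ± 0.156 and 5.48 ± 2.62 in MIGA2-KO (difference in change -5.598 ± 0.86, adjusted p = 0.00078). For all 12 the library labelled MIGA2-KO day 6 replicate 1 was, of the MIGA2-KO day 6 libraries, the one nearest to WT. At day 6 Sbsn was at 30.0, 2.99 and 3.07 CPM in MIGA2-KO, against 305, 482 and 497 in WT.

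The next 3 genes had under 10 counts in a day 0 group and are given as levels. Mc2r, the receptor for corticotropin, reached 105, 91.0 and 96.6 CPM at day 6 in WT and 21.7, 16.8 and 18.1 in MIGA2-KO. Fam107a reached 287, 234 and 224 CPM and 81.3, 132 and 139. Rdh12, a retinol dehydrogenase, was at 75.3, 91.9 and 75.5 CPM and 5.25, 5.39 and 5.70 at day 6. All 3 ended lower in MIGA2-KO with no overlap, but the calls for Fam107a (adjusted p up to 0.051) and Rdh12 (up to 0.584) did not hold when single libraries were left out.

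Of 39 collagen and matrix genes 23 fell and 9 rose in WT, while 12 fell and 15 rose in MIGA2-KO. The difference in change was called for 48.7% of them, beside 21.7% of all genes. In this list 16 had a higher and 3 a lower change in MIGA2-KO, and the median log2 change over the 39 tested members was -1.23 in WT and 0.10 in MIGA2-KO. Col1a2, a chain of type I collagen and the most abundant gene with a higher change, measured 11214, 14697 and 12361 CPM before and 3033, 2848 and 3051 after differentiation in WT. Col1a2 in MIGA2-KO measured 11206, 11290.2 and 10510.1 before and 7407, 10948 and 10483 after. The WT day 6 libraries were far below all others, and the MIGA2-KO day 6 libraries overlapped the day 0 range of that line (difference in change 1.90 ± 0.22, adjusted p = 0.00012). Col1a1, its partner chain, measured 1417, 1499 and 1685 CPM in WT after differentiation and 3624, 7739 and 6986 in MIGA2-KO (difference in change 2.21 ± 0.34, adjusted p = 0.00088). Col3a1 averaged 7021 ± 938 CPM at day 0 and 3266 ± 319 at day 6 in WT and 5276 ± 52.6 and 8737 ± 1953 in MIGA2-KO (difference in change 1.83 ± 0.24, adjusted p = 0.00027). Fbln2, an elastic fibre protein, averaged 3551 ± 406 CPM at day 0 and 684 ± 10.8 at day 6 in WT and 4488 ± 73.5 and 2441 ± 573 in MIGA2-KO (difference in change 1.498 ± 0.23, adjusted p = 0.00069). Postn, periostin, measured 1343, 1682 and 1923 CPM before and 721, 558 and 513 after differentiation in WT. Postn in MIGA2-KO measured 1348, 1343 and 1319 before and 2051, 2801 and 2918 after, and was higher in MIGA2-KO at day 6 than in any other group (difference in change 2.42 ± 0.25, adjusted p = 5.7e-05). Mmp14, a membrane metalloproteinase, differed by 1.92 ± 0.19 (adjusted p = 3.7e-05).

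For other genes the lines were farther apart at day 0 than at day 6. Dcn, decorin, is a small matrix proteoglycan. Dcn (chromosome 10, 97479609 to 97518143) measured 236, 267 and 298 CPM before and 72.1, 60.3 and 60.6 after differentiation in WT. Dcn in MIGA2-KO measured 33.5, 32.2 and 35.2 before and 84.3, 91.6 and 98.5 after. It fell in WT and rose in MIGA2-KO from a much lower day 0 level, and the day 6 levels were closer than the day 0 levels (difference in change 3.50 ± 0.17, adjusted p = 9.6e-07). Lum, lumican, measured 28.3, 30.1 and 36.6 CPM before and 18.2, 13.6 and 13.8 after differentiation in WT. Lum in MIGA2-KO measured 0.565, 0.846 and 1.14 before and 17.7, 18.2 and 19.5 after, with overlap of the lines at day 6 and the largest difference of the 12 genes that the naming rule took (difference in change 5.49 ± 0.29, adjusted p = 9.6e-07). Socs2, a suppressor of growth hormone signalling, Lama2, a laminin chain, and Stc1, a glycoprotein hormone, were likewise lower in MIGA2-KO at day 0, with line differences of -5.24, -3.76 and -4.07 there and of -1.22, 0.22 and 0.19 at day 6. Their differences in change were 4.02, 3.98 and 4.26. Over the 1338 genes with a higher change, group means of the lines were within 1.5-fold for 888 at day 0 and for 275 at day 6, and over the 1306 with a lower change for 937 and 322. The same count was not made over all tested genes, so whether called genes started closer than others is not shown. By adjusted p, another measure, the lines differed for 27.3% of all genes at day 0 (12.9% higher in MIGA2-KO, 14.4% lower). At day 6 they differed for 56.7% (27.1% higher, 29.6% lower).

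The other genes with the largest higher changes include secreted proteins. Spon2, a matrix protein of the spondin family, measured 47.8, 35.7 and 31.6 CPM before and 8.03, 13.1 and 14.4 after differentiation in WT. Spon2 in MIGA2-KO measured 19.3, 22.1 and 22.3 before and 88.6, 153 and 151 after; it fell in WT and rose in MIGA2-KO (difference in change 4.32 ± 0.36, adjusted p = 1.3e-05). Cxcl5, a neutrophil chemokine, measured 35.0, 40.3 and 45.5 CPM before and 0.456, 0.394 and 0.392 after differentiation in WT. Cxcl5 in MIGA2-KO measured 34.9, 33.3 and 32.9 before and 7.71, 5.72 and 6.13 after, so it fell in both lines and further in WT (difference in change 4.20 ± 0.28, adjusted p = 3.6e-06). Ccl6, a chemokine of the C-C class, rose in both lines, averaging 1.86 ± 0.211 CPM at day 0 and 34.5 ± 0.170 at day 6 in WT and 0.796 ± 0.133 and 189 ± 44.0 in MIGA2-KO (difference in change 3.68 ± 0.30, adjusted p = 1.2e-05). Mmp13, a collagenase, averaged 46.9 ± 4.66 CPM at day 0 and 0.786 ± 0.451 at day 6 in WT and 10.6 ± 1.15 and 3.21 ± 1.26 in MIGA2-KO (difference in change 4.14 ± 0.45, adjusted p = 7.3e-05). Tnr, Ces1a, Gpr149 and Ggt5 completed the 12, with differences in change of 4.45, 3.88, 3.80 and 3.70. Ces1a belongs to a cluster of close copies among which reads may be shared.

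Of 19 preadipocyte markers 8 had a higher change and none a lower one, and by sign alone 13 lay above zero and 6 below. Thus 42.1% was called, beside 21.7% of all genes. The count higher was 5 without MIGA2-KO day 0 replicate 3, MIGA2-KO day 6 replicate 2 or MIGA2-KO day 6 replicate 3, and the count lower was 2 without WT day 0 replicate 1 and 1 without WT day 6 replicate 1. Pdgfrb, a receptor of fibroblastic precursors, averaged 567 ± 52.95 CPM at day 0 and 79.4 ± 5.35 at day 6 in WT and 639 ± 11.0 and 248.7 ± 10.01 in MIGA2-KO (difference in change 1.47 ± 0.15, adjusted p = 4e-05). The higher members also included Dcn and Lum, which were lower in MIGA2-KO at day 0. Dlk1 and Ly6a, named after their values were seen, fell in both lines. By the ratio of the means that follow, both fell further in MIGA2-KO, the opposite direction to Pdgfrb, and neither difference was called. Dlk1 averaged 1147 CPM at day 0 and 342 at day 6 in WT and 914 and 187 in MIGA2-KO. For Ly6a these means were 259 and 80.2 in WT and 367 and 76.4 in MIGA2-KO. In the next 4 lists the shares called were 26.9% (TGF-beta and BMP), 33.3% (Wnt), 27.3% (actin) and 35.7% (IGF), beside 21.7% of all genes. TGF-beta and BMP signalling had 6 of 26 higher and 1 lower, with 10 higher without WT day 0 replicate 1. Tgfbi, a secreted TGF-beta target, measured 211, 204 and 213 CPM before and 21.4, 20.9 and 18.4 after differentiation in WT. Tgfbi in MIGA2-KO measured 94.2, 97.1 and 104 before and 77.6, 102 and 99.7 after, falling in WT below both days of MIGA2-KO, which overlapped (difference in change 3.29 ± 0.17, adjusted p = 9.6e-07). The Wnt pathway had 4 of 18 higher and 2 lower. Sfrp2, a secreted Wnt modulator, and Wnt5a, a ligand, had differences in change of 2.72 ± 0.24 and 1.98 ± 0.40 (adjusted p = 1.9e-05 and 0.0042), and Lef1, a nuclear effector, of -2.30 ± 0.33 (adjusted p = 0.00045). Actin and contractile genes had 5 of 22 higher and 1 lower, and fell in both lines in most cases, 17 in WT and 16 in MIGA2-KO. Their count higher was 2 without MIGA2-KO day 0 replicate 1 and 3 without MIGA2-KO day 0 replicate 2 or 3 or WT day 0 replicate 2, and their count lower 2 without WT day 0 replicate 1 and 3 without WT day 6 replicate 1 or the library labelled MIGA2-KO day 6 replicate 1. The IGF axis had 2 of 14 higher (4 without MIGA2-KO day 6 replicate 2) and 3 lower, with Igf2, a growth factor, at 4.02 ± 0.737 CPM at day 0 and 99.8 ± 2.93 at day 6 in WT and 3.19 ± 0.415 and 19.9 ± 2.20 in MIGA2-KO (difference in change -1.99 ± 0.22, adjusted p = 8.3e-05).

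Genes of the cell cycle and DNA replication had the highest share of higher changes among the lists. In that list 60% was called in either direction, beside 21.7% of all genes. Of 35 members 20 had a higher and 1 a lower change (14 to 21 higher with 1 library left out), and the median log2 change over the 35 tested members was -0.96 in WT and 0.14 in MIGA2-KO. The lines differed by a median of -0.83 at day 0 and 0.16 at day 6. Mcm3, of the replicative helicase, measured 28.8, 29.4 and 29.9 CPM before and 11.0, 12.2 and 11.0 after differentiation in WT. Mcm3 in MIGA2-KO measured 12.3, 14.2 and 15.7 before and 16.0, 15.6 and 17.4 after. WT at day 0 stood above the other groups, and MIGA2-KO overlapped between its own days (difference in change 1.58 ± 0.18, adjusted p = 8.9e-05). Ccna2, cyclin A2, averaged 9.97 ± 1.06 CPM at day 0 and 4.92 ± 0.281 at day 6 in WT and 4.13 ± 0.446 and 7.64 ± 0.788 in MIGA2-KO (difference in change 1.91 ± 0.23, adjusted p = 0.00017). Mcm2 and Mcm6, of the same helicase, differed by 1.18 ± 0.18 and 1.10 ± 0.16 (adjusted p = 0.00063 and 0.00055). Among 18 p53 targets 4 were higher and none lower, so 22.2% was called, beside 21.7% of all genes. The count lower was 2 when WT day 0 replicate 1 was left out and 3 for the library labelled MIGA2-KO day 6 replicate 1. Gadd45a, a growth arrest gene, measured 68.7, 50.3 and 44.1 CPM before and 9.76, 10.6 and 8.13 after differentiation in WT. Gadd45a in MIGA2-KO measured 51.7, 46.9 and 42.1 before and 54.7, 44.5 and 40.0 after, low only in WT at day 6 (difference in change 2.499 ± 0.26, adjusted p = 6.1e-05).

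**Figure D4:**
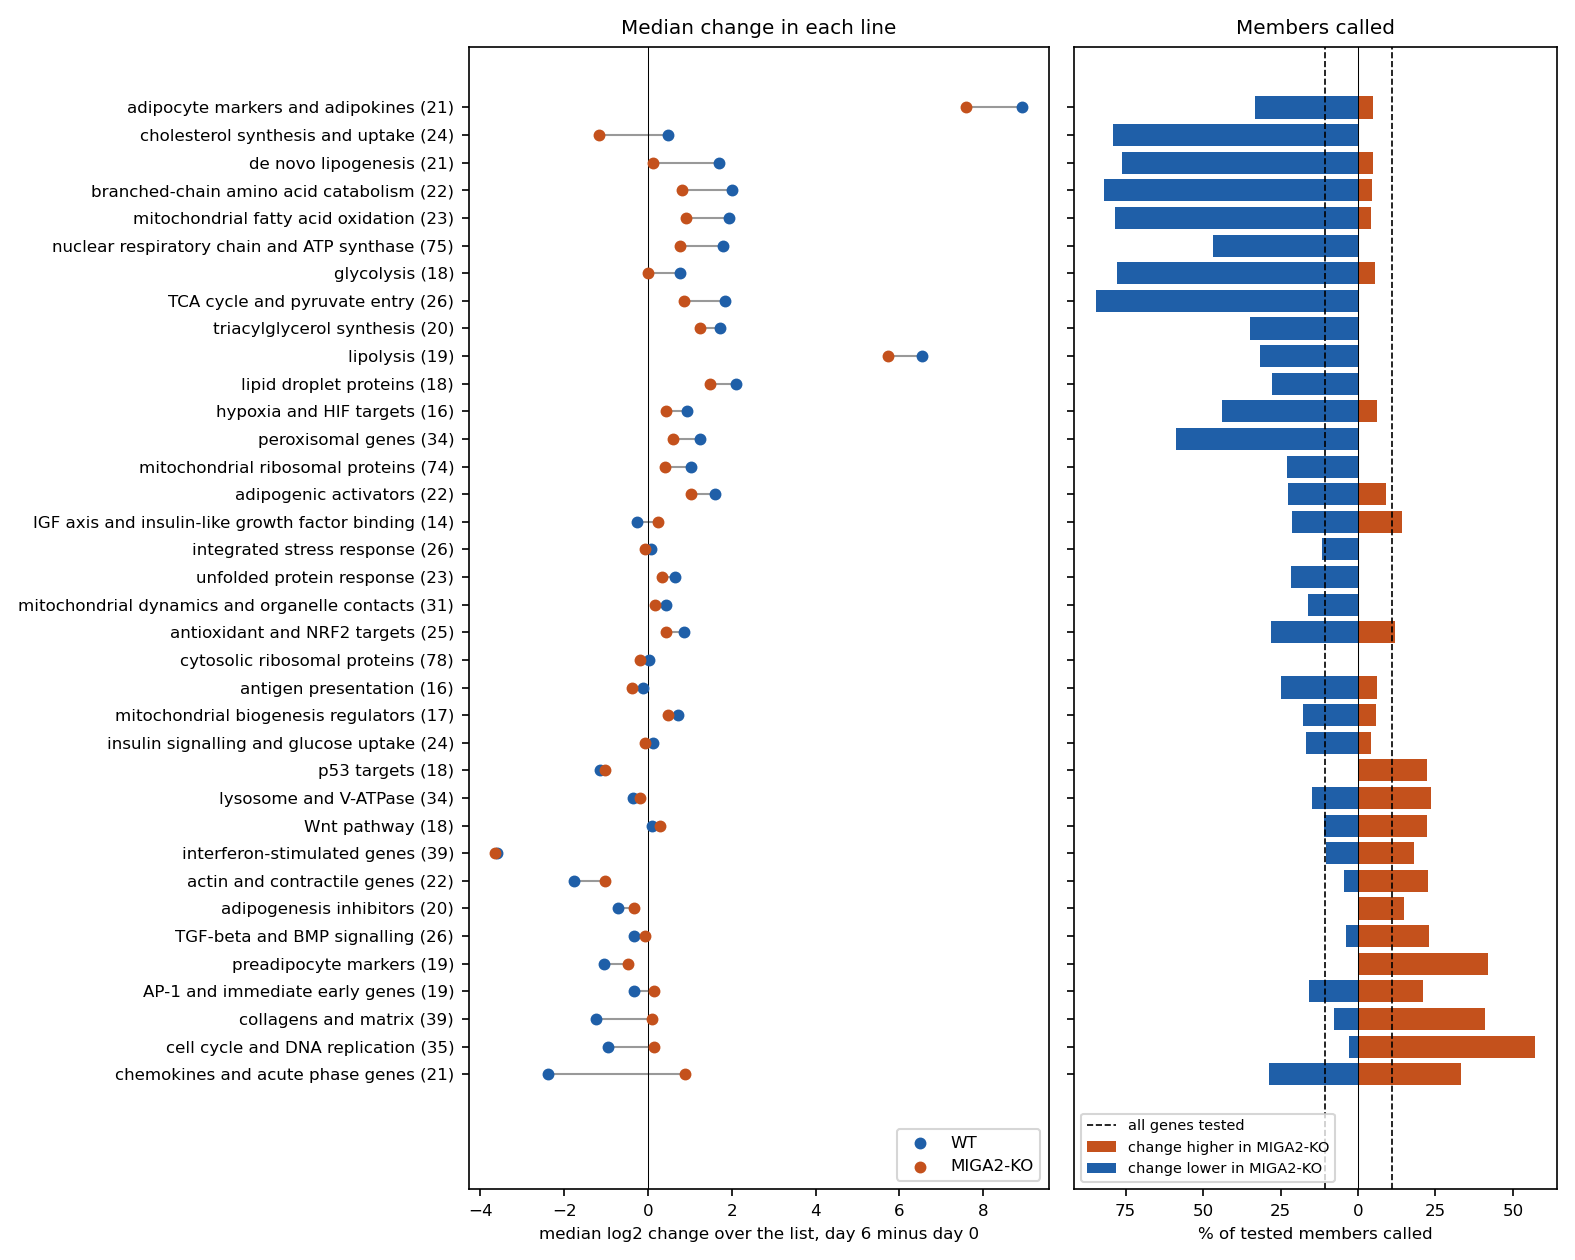
Left, median log2 change from day 0 to day 6 in WT (blue) and MIGA2-KO (orange) over each gene list with at least 14 tested members. The number of tested members is in brackets. Right, share of tested members whose change was lower (blue, to the left) or higher (orange, to the right) in MIGA2-KO, with dashed lines at 10.7% and 11.0% for all genes. Lists of metabolism extend to the left and those of matrix and cell cycle to the right.

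Interferon-stimulated genes fell in both lines, 36 of 39 in WT and 37 in MIGA2-KO, from a higher start in MIGA2-KO (median line difference 1.03 at day 0). Differences in change went both ways, 7 higher and 4 lower, so 28.2% was called, beside 21.7% of all genes. Of the 39 tested, 12 had under 10 counts in at least 1 group, where a log2 change is fixed by few counts. The count higher was 11 if replicate 1 of WT day 0 or of WT day 6 was left out. The count lower was 7 without WT day 0 replicate 1. Usp18, a protease that removes ISG15, measured 24.3, 17.2 and 19.4 CPM before and 8.94, 6.30 and 6.37 after differentiation in WT. Usp18 in MIGA2-KO measured 41.1, 41.4 and 39.6 before and 1.14, 1.24 and 1.40 after, highest in MIGA2-KO at day 0 and lowest there at day 6 (difference in change -3.51 ± 0.27, adjusted p = 8.1e-06). Ifit1, an RNA-binding effector, had 2 counts in WT at day 6, and was at 1.66, 1.99 and 1.75 CPM in MIGA2-KO at day 6 after 59.9, 63.1 and 70.6 in WT and 165, 168 and 166 in MIGA2-KO at day 0. Chemokines and acute phase genes had 7 of 21 higher and 6 lower (61.9% called). C3, a complement protein that fat cells secrete, measured 403, 471 and 478 CPM before and 9497, 10304 and 9969 after differentiation in WT. C3 in MIGA2-KO measured 603, 624 and 638 before and 3477, 4034 and 3904 after, with a smaller rise in MIGA2-KO (difference in change -1.85 ± 0.16, adjusted p = 1.7e-05). Antigen presentation had 4 of 16 lower and 1 higher (31.2% called). Only 1 was lower without any library other than replicate 1 of WT day 0, WT day 6 or MIGA2-KO day 6, and none was higher without any 1 of 9 libraries, which leaves WT day 6 replicates 1 and 2 and the library labelled MIGA2-KO day 6 replicate 1 as those without which it was called.

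Among other programs, 8 of 34 lysosomal genes were higher and 5 lower, so 38.2% was called, beside 21.7% of all genes. The count lower was 1 without WT day 6 replicate 2. It was 2 or 3 without WT day 0 replicate 2, WT day 6 replicate 3 or any MIGA2-KO library but day 6 replicate 1. Ctsk, cathepsin K, measured 209, 160.3 and 162 CPM before and 54.6, 66.0 and 65.6 after differentiation in WT. Ctsk in MIGA2-KO measured 45.2, 45.8 and 49.0 before and 63.1, 56.1 and 58.9 after, with overlap of the lines at day 6 and a gap at day 0 (difference in change 1.86 ± 0.18, adjusted p = 3.6e-05). Immediate early genes had 4 of 19 higher and 3 lower (1 or 2 higher without any 1 of WT day 0 replicates 2 and 3, WT day 6 replicate 2 and the MIGA2-KO libraries). Myc, which encodes a growth factor-induced transcription factor, averaged 11.96 ± 3.33 CPM at day 0 and 74.1 ± 6.19 at day 6 in WT and 11.2 ± 1.04 and 28.5 ± 0.332 in MIGA2-KO (difference in change -1.28 ± 0.25, adjusted p = 0.0033). Of 78 cytosolic ribosomal protein genes, edgeR called none in either direction, DESeq2 called none, and 3 had an unadjusted p under 0.05. That count depended on single libraries. It was 30 lower without WT day 0 replicate 1, 4 lower without WT day 6 replicate 1, and 70 of the 78 lower without replicate 1 of WT day 0, WT day 6 and MIGA2-KO day 6 together. With offsets for GC content and length, 6 were higher.

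Genes with called changes of opposite sign numbered 79 that fell in WT and rose in MIGA2-KO and 53 that rose in WT and fell in MIGA2-KO. The former included Dcn, Lum and Spon2, and Serpinb1a, a protease inhibitor, at 23.3 ± 4.89 CPM at day 0 and 9.47 ± 0.988 at day 6 in WT and 4.72 ± 0.527 and 16.3 ± 3.24 in MIGA2-KO (difference in change 3.09 ± 0.28, adjusted p = 2.5e-05). Gas7, Nrep, Lix1l and Rnf19b had differences in change of 2.03, 2.13, 1.72 and 1.61. The latter included Nsdhl and Lss. Elovl4, which elongates very long fatty acids, measured 1.95, 3.65 and 3.54 CPM before and 51.3, 50.1 and 46.8 after differentiation in WT. Elovl4 in MIGA2-KO measured 4.20, 3.23 and 3.26 before and 1.93, 0.829 and 1.67 after, high only in WT at day 6 (difference in change -5.28 ± 0.39, adjusted p = 6.9e-06). P2ry2, a nucleotide receptor, averaged 1.09 ± 0.293 CPM at day 0 and 14.7 ± 0.439 at day 6 in WT and 1.39 ± 0.477 and 0.290 ± 0.223 in MIGA2-KO (difference in change -5.98 ± 0.55, adjusted p = 2.4e-05). Synm, an intermediate filament protein, Slco3a1, a transporter, and F11r, a junction adhesion molecule, had differences in change of -4.12, -2.85 and -3.64.

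Among markers of other cell types, several defining ones were at 0, while some list sums were not low. Of the 13 macrophage markers, 8 were under 1 CPM in every group, and Ptprc and Fcgr1 were at 0. The sum over the list was 88.9 to 126 CPM before and 23.9 to 33.6 after differentiation in WT, and 93.4 to 96.0 and 34.7 to 43.5 in MIGA2-KO, mostly from Lyz2 and Cd14. Endothelial markers summed to at most 17.0 CPM, with Tie1 and Cldn5 at 0. Skeletal muscle markers summed to 23.2 to 38.8 CPM in WT and 16.1 to 77.6 in MIGA2-KO at day 6, with Myod1 at 0. That upper end came from MIGA2-KO day 6 replicate 3, without which the median difference in change over the 3 tested members went from 3.75 to -0.43. Sums over the chondrocyte list came mostly from Sox9, with Acan, Col9a2 and Chad at 0. The osteoblast list summed to 832 to 962 CPM before and 52.2 to 61.4 after differentiation in WT, and to 532 to 548 and 46.0 to 113 in MIGA2-KO, mostly from Spp1 and Runx2, with Dlx5 at 0. Runx2, a transcription factor of bone that precursors of fat also express, fell in WT and less in MIGA2-KO (difference in change 2.20 ± 0.24, adjusted p = 8.2e-05). Epithelial and mesothelial markers summed to 62.3 to 75.8 CPM in WT at day 6 and 13.0 to 17.5 in MIGA2-KO, mostly from Msln (difference in change -3.01 ± 0.22, adjusted p = 5.4e-06), with Epcam, Cdh1, Cldn3 and Cldn7 at 0. The part of such cells in the results was not tested. The adipocyte list summed to 824 to 908 CPM before and 58914 to 77546 after differentiation in WT. For MIGA2-KO those sums were 1234 to 1262 and 12268 to 19178, so both lines took on adipocyte expression.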

How the data were processed

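RNA of 12 libraries (3 per group) was compared. The deposited values are raw counts per gene that the authors obtained, per the submitters' processing notes, with bcl2fastq 2.19, Trimmomatic, STAR 2.5.4b and featureCounts on GRCm38.p5. The strand and multimapping settings of the counting were not given in the sources used. Of 25700 genes, 12195 passed filterByExpr (minimum count 10, minimum total 15). edgeR 4.0.16 in R 4.3.3 fitted 1 term per group with TMM factors. Its quasi-likelihood test compared the change over time between lines, with Benjamini-Hochberg adjustment over all tested genes and a threshold of 0.05. The standard error is the log2 value's size over the square root of F. Levels are CPM on TMM-adjusted library sizes. The fitting script was also run on counts simulated from the fit to these data. The values given are from a second run, after a first with another random seed. It recovered 23% of 100 genes given a difference of log2 size 1 and 88% of 100 given size 2. Of the genes it called, 3.48% (4 genes) were false. Each simulated gene had the same dispersion in all groups, unlike the unequal spread of the groups here, so these rates may not carry over.

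Genes were named by rule: Miga2 and Miga1, the 12 largest differences per direction that passed with each library left out (at least 10 CPM in a group and 10 counts in every group), up to 4 members per list by adjusted p, the 6 most abundant called genes per direction, the 8 per pattern with opposite changes, and up to 4 per direction with under 10 counts in a group. Other genes are marked where named, and some named by the rule are not reported here. Members and the 44 lists were chosen with earlier results of these data known. Alternatives (21) covered scaling, filter, DESeq2 1.42.0, limma 3.58.1 voom with quality weights, GC and length offsets, a replicate block, all 15 libraries and libraries left out. The MIGA2-GFP libraries entered only the alternative with all 15.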

Additional observations from a re-analysis of the deposited data

Results flagged for a closer look

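The change over time was tested for a difference between the lines, which holds by that test for 1338 genes with a higher and 1306 with a lower change in MIGA2-KO. Among them 79 fell in WT and rose in MIGA2-KO, and 53 did the reverse, by called changes in each line. For such genes named by the rule and reported here, the differences in change on the log2 scale were 3.50 for Dcn, 5.49 for Lum, 4.32 for Spon2, 2.13 for Nrep, 3.09 for Serpinb1a, 1.61 for Rnf19b, 1.72 for Lix1l and 2.03 for Gas7. In the other direction they were -2.27 for Nsdhl, -2.85 for Slco3a1, -5.28 for Elovl4, -3.64 for F11r, -5.98 for P2ry2, -1.98 for Lss and -4.12 for Synm. Groups of 3 libraries were not tested for single outlying values.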

How the results depend on the processing

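No gene called in the main analysis changed sign in any of the 21 alternatives. Of the 2644 calls, 2562 held with RLE size factors, which gave 2683 in all, and 2625 with DESeq2, which gave 3285. Without the low count filter 2439 of 17658 genes passed, and with all 15 libraries 3346 did. Counts moved more under other settings. GC and length offsets gave 4152 calls (2056 higher, 2096 lower), voom with quality weights 7536 (3730 and 3806), and leaving out replicate 1 of WT day 0, WT day 6 and MIGA2-KO day 6 together 7376 (3773 and 3603). With single libraries left out, calls ranged from 1854 (MIGA2-KO day 0 replicate 1) to 4345 (WT day 0 replicate 1), those higher from 931 to 2218 and those lower from 901 to 2127. Changes over time in MIGA2-KO numbered 4874, and 8116 with voom, and line differences at day 0 numbered 3325, with 6566 for voom, 5664 without the 3 libraries and 1786 to 3945 with 1 left out. The causes were not tested.

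Replicate numbers are shared between groups. Between the 2 WT days, deviations of same-numbered libraries from their group means correlated at -0.728, -0.371 and -0.533 over genes, in opposite directions. Such opposite deviations enter the change in WT and so the difference in change, and their cause was not tested. Between the other pairs of groups the correlations were -0.121 to 0.129. Of 36 best matches, 12 had the own number. With the replicate block 1937 genes passed (957 higher, 980 lower), 73.1% of the calls held, and the block with GC and length offsets gave 3541.

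Values that reversed sign belonged to genes without a call or were medians of lists. Miga2 was at -1.25 with voom and -1.61 without the 3 libraries, and ranged from -1.55 to 1.24 with 1 left out. Rplp0 was at 0.32 with GC and length offsets, alone (0.3177) or with the block (0.3183), and ranged from -0.29 to 0.18. Rpsa was at -0.0066 with RLE or DESeq2, -0.37 with voom and -0.52 without the 3 libraries, and ranged from -0.39 to 0.24. Des was at 0.10 with the offsets and 0.03 with the block too, and ranged from -0.52 to 0.11. Acta1, and with it the median of the skeletal muscle list, ranged from -0.43 (without MIGA2-KO day 6 replicate 3) to 4.98. The median of the IGF list was 0.097 without the 3 libraries and ranged from -0.45 to 0.016, and that of the interferon list from -0.01 to 0.39. Medians of 7 other lists, all within 0.29 of zero, also took both signs over the alternatives: actin -0.04 to 0.42, cytosolic ribosomal proteins -0.76 to 0.09, insulin signalling -0.16 to 0.21, lysosome -0.03 to 0.17, p53 -0.09 to 0.01, thermogenic -1.57 to 0.14 and Wnt -0.06 to 0.31.

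Depth limits genes with under 10 counts in a group, 705 of those tested, whose fitted changes depend on the prior count. An uncalled gene is not shown to be alike in the lines. The line and its handling cannot be told apart, since the labels name 1 MIGA2-KO line.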
